A study of Rattus norvegicus with 6 samples.

Results

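The muscle-type nicotinic acetylcholine receptor subunits Chrna1, Chrnb1, Chrnd, Chrng and Chrne were followed in the tibialis anterior of 3 rats after repair of a cut nerve. Every probe set annotated with 1 of these 5 symbols alone was taken, and dim ones were kept. This gave 1 probe set per gene, 5 in all, among 15866 probe sets fitted and 10411 named genes. The animals were male Wistar rats, 8 weeks old, and carry the numbers 4, 5 and 6. Their peroneal nerve, which supplies the tibialis anterior, had been cut and its end stitched to the biceps femoris, and 4 weeks later its stumps were joined. Survival was 8 weeks, read here as counted from the repair, which the labels do not state. The ipsilateral group is the muscle of the operated leg (3 arrays) and the contralateral group is the same muscle of the other leg of the same animals (3 arrays). The contralateral muscles therefore come from operated and anaesthetised animals. Muscles of unoperated rats, or muscles left without repair, were not analysed here.

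The receptor is a ring of subunits around a cation channel in the muscle membrane. It opens when acetylcholine from the motor nerve binds at the faces between the alpha subunit and a delta, gamma or epsilon subunit. In fetal muscle the ring holds the gamma subunit, made from Chrng. After birth the epsilon subunit, made from Chrne, takes its place, and the adult receptor opens for a shorter time and passes more current. In innervated adult muscle the subunit genes are transcribed mainly by the nuclei under the synapse. After denervation the genes of the alpha, beta, delta and gamma subunits are switched on along the whole fibre by myogenic factors that bind E-boxes, and synaptic transcription of Chrnd and Chrne is known in rodents to use an N-box bound by GA-binding protein.

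Promoter windows from RefSeq (assembly GRCr8, 250 bases before to 50 after the transcript start) were found for 5 of 5 subunit genes. The windows of Chrng and Chrne are shown because they belong to the fetal and the adult subunit, and those of Chrna1 and Chrnd as examples without and with an N-box among the 3 genes, Chrnb1 being the other, whose differences had the same signs in each animal. Capitals mark E-boxes (CANNTG) and N-boxes (CCGGAA on either strand). The windows lie at chr9:95325734-95326033 on the plus strand for Chrng, chr10:55834105-55834404 on the minus strand for Chrne, chr3:78877304-78877603 on the minus strand for Chrna1 and chr9:95310066-95310365 on the plus strand for Chrnd, each written 5′ to 3′ along the gene.
Chrng: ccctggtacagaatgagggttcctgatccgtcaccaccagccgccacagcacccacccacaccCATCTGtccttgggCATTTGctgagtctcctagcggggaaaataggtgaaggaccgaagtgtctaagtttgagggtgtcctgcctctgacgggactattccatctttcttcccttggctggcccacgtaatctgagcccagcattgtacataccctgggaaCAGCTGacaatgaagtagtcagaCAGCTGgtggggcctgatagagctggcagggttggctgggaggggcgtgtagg
Chrne: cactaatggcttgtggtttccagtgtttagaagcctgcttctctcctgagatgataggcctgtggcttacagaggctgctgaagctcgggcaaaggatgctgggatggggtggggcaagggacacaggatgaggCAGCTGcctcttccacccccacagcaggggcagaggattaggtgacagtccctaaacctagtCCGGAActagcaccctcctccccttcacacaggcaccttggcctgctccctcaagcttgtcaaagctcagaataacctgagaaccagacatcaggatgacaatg
Chrna1: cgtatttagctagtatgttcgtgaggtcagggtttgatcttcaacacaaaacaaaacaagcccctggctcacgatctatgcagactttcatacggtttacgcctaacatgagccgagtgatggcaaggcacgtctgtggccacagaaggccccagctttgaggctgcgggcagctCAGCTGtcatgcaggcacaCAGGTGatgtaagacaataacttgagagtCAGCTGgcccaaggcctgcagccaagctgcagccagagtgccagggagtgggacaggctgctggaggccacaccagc
Chrnd: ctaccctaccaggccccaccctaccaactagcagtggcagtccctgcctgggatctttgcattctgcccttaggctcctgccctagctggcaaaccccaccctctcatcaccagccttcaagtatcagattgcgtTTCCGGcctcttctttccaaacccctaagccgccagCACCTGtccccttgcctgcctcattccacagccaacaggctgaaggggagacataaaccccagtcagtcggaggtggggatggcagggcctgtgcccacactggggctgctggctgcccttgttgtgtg

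The fetal Chrng window held 4 E-boxes and no N-box, whereas the adult Chrne window held 1 E-box and 1 N-box. In Chrng a pair of the E-boxes had the letters CAGCTG, at 26 bases before the start and across the start itself. Chrna1 held 3 E-boxes, of which 2 were CAGCTG, and Chrnb1 also held 3, of which 1 was CAGCTG. Chrnd held 1 E-box and 1 N-box, the N-box as TTCCGG, its form on the opposite strand. None of the E-boxes and N-boxes overlapped in these 5 windows. Of 27457 RefSeq windows of the same length, 71.7% held an E-box, 15.1% held CAGCTG and 15.8% held an N-box, so an E-box alone is common. At least 2 E-boxes lay in 38.1% and at least 2 CAGCTG in 1.69%. Among the 18999 windows of protein-coding genes, 69.2% held an E-box, 15.4% held CAGCTG and 18.5% held an N-box. Chrnd and Chrng are neighbours among the protein-coding genes of chromosome 9. A match describes letters in the window only, and binding was not measured.

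**Figure D1:**
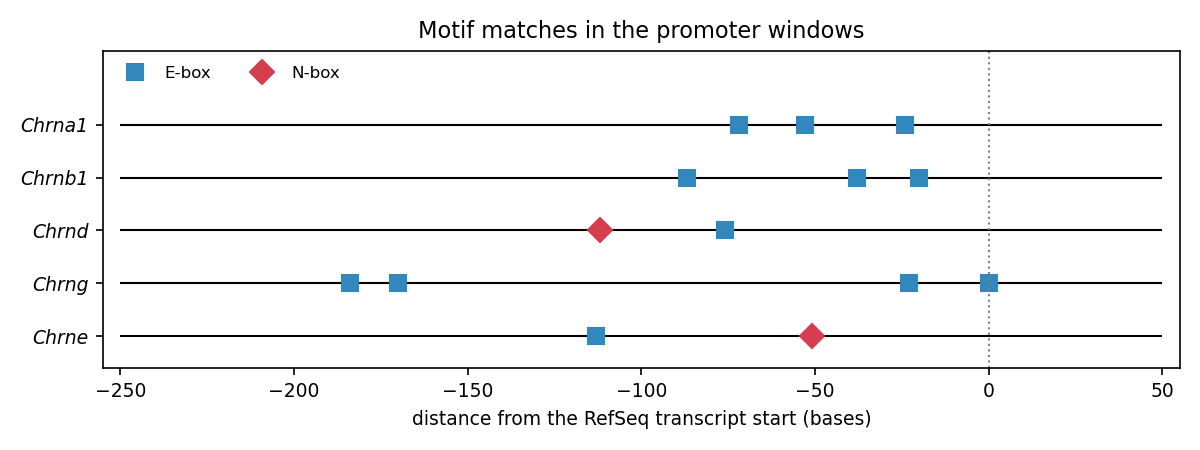
Positions of E-boxes (squares) and N-boxes (diamonds) in the promoter windows of the 5 subunit genes, as the distance of the motif's centre from the RefSeq transcript start, in bases. N-boxes lie in the windows of Chrnd and Chrne, and Chrng holds the most E-boxes, 4.

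All arrays had a trimmed mean intensity of about 150 (150.05 in each library after leaving out the lowest and highest 2%), so levels are relative to the bulk of probe sets on the array. Library medians ran from 60.2 to 66.6. The labelled tissue was checked against 10 skeletal muscle fibre markers, of which 9 were measured. Their summed intensity was 38034, 36424 and 40684 in the ipsilateral muscles of animals 4, 5 and 6, against 40544, 45101 and 41978 in the contralateral ones. The sum was thus lower ipsilaterally in each animal. Both arrays of animal 4 stood apart in the cre hybridisation spike, with a mean of 1073 on the ipsilateral and 778 on the contralateral array, against 2018 to 2922 on the other arrays. The sperm transcripts Prm1, Tnp1 and Odf1 were all 3 higher ipsilaterally in every animal, so this signal moved with the comparison. Their summed intensity was 947, 165 and 412 in the ipsilateral muscles of animals 4, 5 and 6, against 276, 81.5 and 112.5 in the contralateral ones, and was highest in ipsilateral animal 4. A sign of RNA quality, the intensity of the actin control at its 3′ end over that at its middle, was 1.36, 1.53 and 2.87 in the ipsilateral libraries of animals 4, 5 and 6, against 2.77, 1.54 and 1.68 in the contralateral ones. Contralateral animal 4 and ipsilateral animal 6 stood apart in it. The part of these signals in the subunit differences was not tested. The subunit differences are given without each animal in turn, and the list medians without animal 4 only, whose arrays both stood apart in the spike. The spike was low on both sides of animal 4, and its bearing on that animal's difference between sides was not tested. The actin ratio set ipsilateral animal 6 apart too. Leaving out animal 4 raised Chrna1, Chrnb1 and Chrnd, which were not higher ipsilaterally in that animal. The number of arrays limits the precision.

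Of the 5 subunits, 0 passed the paired limma test at a Benjamini-Hochberg adjusted p under 0.05, as did 0% of all 15866 probe sets. The mean differences of Chrna1, Chrnb1, Chrnd and Chrne were above 0 and that of Chrng was near 0. In none of the 5 did all 3 animals differ in the same direction (0 of 5), where 25.4% of all probe sets did, 11.6% higher and 13.8% lower. In none did the groups separate (0 of 5), where 4.36% of all probe sets lay without overlap higher and 5.26% lower in ipsilateral muscle. Chrna1, Chrnb1 and Chrnd shared a pattern that was picked out after the values were seen, lower in ipsilateral muscle of animal 4 and higher in that of animals 5 and 6. It held for 3 of the 5 subunits and for 14.2% of all probe sets. The actin ratio given above was also lower ipsilaterally in animal 4 and higher in animal 6, with near equal values in animal 5, and its part in the pattern was not tested. The median log2 difference of the 5 subunits was 0.28, beside -0.013 over all probe sets. By animal, the subunit median was -0.010, 0.27 and 0.59 in animals 4, 5 and 6, beside 0.0010, -0.049 and 0.012 over all probe sets. Each difference is on the log2 scale, ipsilateral minus contralateral, with 15.8 added to every intensity beforehand, which understates the differences of dim probe sets. In whole muscle, fewer cells of a type and less RNA per cell cannot be told apart.

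Chrna1 encodes the alpha subunit, the main carrier of the acetylcholine binding site. Its intensity was 58.9, 135.2 and 151.3 in the ipsilateral muscles of animals 4, 5 and 6, against 80.3, 65.4 and 97.0 in their contralateral muscles. The ipsilateral muscles of animals 5 and 6 were the highest of the 6, the ipsilateral muscle of animal 4 was the lowest, and the groups overlapped. Chrna1 averaged 115.1 ± 49.4 in ipsilateral and 80.9 ± 15.8 in contralateral muscle (SD, n = 3 each). The log2 difference was 0.37 (SE 0.26, 95% interval -0.27 to 1.0, limma adjusted p = 0.895), made up of -0.36, 0.89 and 0.57 in animals 4, 5 and 6. Among all probe sets these lay at the 10.7th, 98.0th and 94.4th percentile of each animal's own differences. The signs of this subunit thus differed between animals, and each animal's value lay towards an end of its own distribution. Without animal 4 the difference was 0.73 (SE 0.19, limma adjusted p = 0.232), and without animal 5 or 6 it was 0.10 (SE 0.29) or 0.27 (SE 0.36).

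Chrnb1 encodes the beta subunit, part of the ring in both fetal and adult receptors. Its intensity was 112.1, 157.9 and 171.2 in the ipsilateral muscles of animals 4, 5 and 6, against 113.0, 127.8 and 108.2 in the contralateral ones. Animal 4 had nearly equal values on both sides, while the ipsilateral muscles of animals 5 and 6 lay above all 3 contralateral ones. The means were 147 ± 31.0 in ipsilateral and 116 ± 10.2 in contralateral muscle (SD, n = 3 each). The log2 difference was 0.29 (SE 0.17, 95% interval -0.12 to 0.69, limma adjusted p = 0.888), with -0.010, 0.27 and 0.59 in animals 4, 5 and 6. The 3 animals were less far apart than for any other subunit but Chrng, with an SD of their differences of 0.30 for Chrnb1, against 0.65 for Chrna1, 0.53 for Chrnd, 0.51 for Chrne and 0.22 for Chrng. Without animal 4 the Chrnb1 difference was 0.43 (SE 0.17, limma adjusted p = 0.402), and without animal 5 or 6 it was 0.29 (SE 0.23) or 0.13 (SE 0.20).

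Chrnd encodes the delta subunit, which forms a binding face with an alpha subunit in both receptor forms. Its intensity was 33.2, 57.4 and 69.6 in the ipsilateral muscles of animals 4, 5 and 6, against 49.3, 40.9 and 40 in the contralateral ones. As for Chrna1, ipsilateral animal 4 was the lowest of the 6 libraries and ipsilateral animal 6 the highest. The log2 difference was 0.19 (SE 0.24, 95% interval -0.40 to 0.78, limma adjusted p = 0.948), with -0.41, 0.37 and 0.61 in animals 4, 5 and 6. Its sign rested on animal 6, since it was -0.021 (SE 0.29) without that animal and 0.49 without animal 4 (SE 0.24, limma adjusted p = 0.505). Without animal 5 the difference was 0.10 (SE 0.32).

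**Figure D2:**
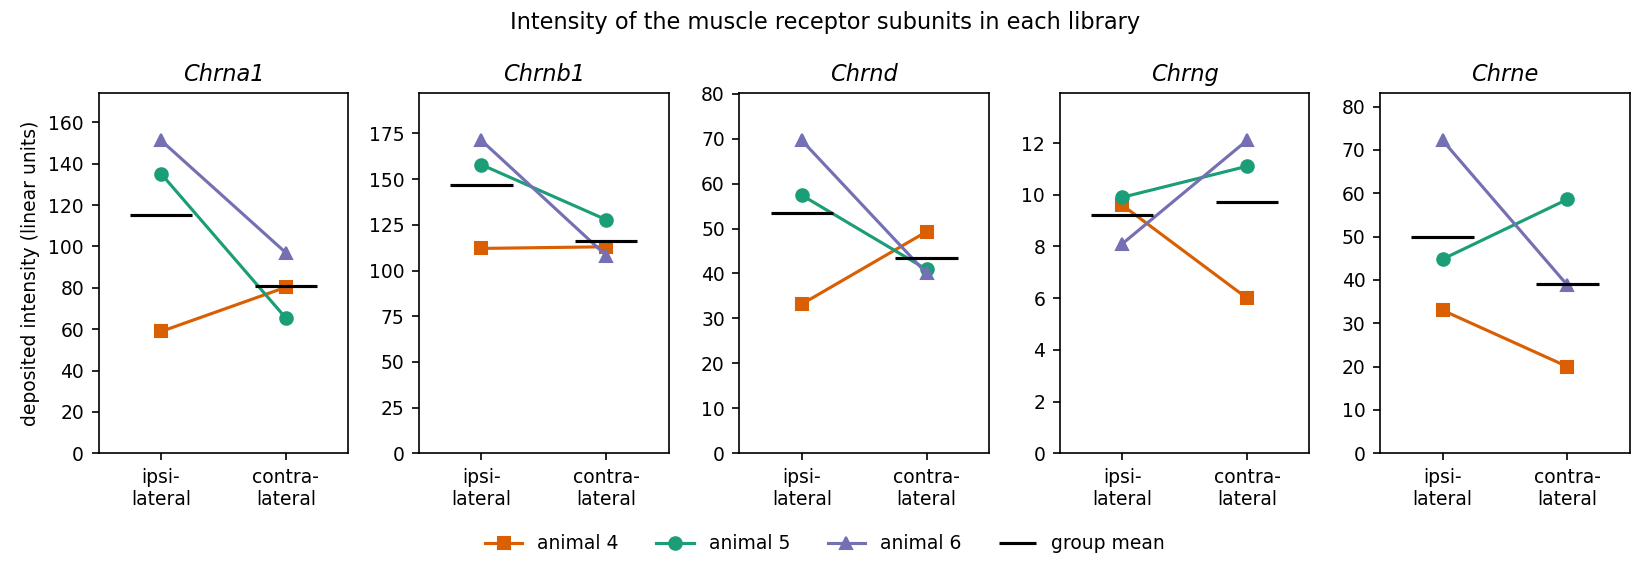
Deposited intensity (linear units, each axis from 0) of the 5 subunits in the ipsilateral and contralateral muscle of animals 4, 5 and 6. Lines join the muscles of 1 animal and black bars are means of 3 libraries. For Chrna1, Chrnb1 and Chrnd the lines of animals 5 and 6 are higher on the ipsilateral side and that of animal 4 is not.

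Chrng encodes the fetal gamma subunit. Its intensity was 9.6, 9.9 and 8.1 in the ipsilateral muscles of animals 4, 5 and 6, against 6.0, 11.1 and 12.1 in the contralateral ones. All 6 values were below the pseudocount of 15.8, and the mean of the gene's log2 values lay at the 13.4th percentile of all probe sets. The ipsilateral values lay within the contralateral range. The log2 difference was -0.023 (SE 0.14, 95% interval -0.36 to 0.31, limma adjusted p = 0.992), with 0.22, -0.066 and -0.22 in animals 4, 5 and 6, and it was 0.00063 after quantile normalization, so no direction is given. With a pseudocount of 2.9 the SE was 0.31, so the narrow interval comes with the pseudocount. Such low intensities do not show that the transcript was absent, and no detection calls were used here. Without animal 4 the difference was -0.14 (SE 0.17, limma adjusted p = 0.824), and without animal 5 or 6 it was -0.0014 (SE 0.17) or 0.077 (SE 0.17).

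Chrne encodes the adult epsilon subunit. Its intensity was 33.0, 44.8 and 72.2 in the ipsilateral muscles of animals 4, 5 and 6, against 20, 58.6 and 38.8 in the contralateral ones. Animals 4 and 6 were higher ipsilaterally and animal 5 was lower, the other way round from the signs of Chrna1 in animals 4 and 5. The means were 50 ± 20.1 in ipsilateral and 39.1 ± 19.3 in contralateral muscle (SD, n = 3 each). The log2 difference was 0.28 (SE 0.24, 95% interval -0.30 to 0.86, limma adjusted p = 0.899), with 0.45, -0.30 and 0.69 in animals 4, 5 and 6. Without animal 4 it was 0.20 (SE 0.30, limma adjusted p = 0.877), and leaving out animal 5 or 6 gave 0.57 (SE 0.22) or 0.075 (SE 0.29).

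The fetal and adult subunits were compared by their within-animal differences, since levels of different probe sets are not on a common scale. The difference of Chrng minus that of Chrne was -0.23, 0.23 and -0.91 in animals 4, 5 and 6, a mean of -0.30 ± 0.57 (SD, n = 3 animals). An exact two-sided sign-flip permutation test gave p = 0.75, where 3 animals cannot give less than 0.25. This test can therefore not show a shift between adult and fetal transcript, nor its absence, and with Chrng below the pseudocount the value follows Chrne for the most part. The mean was -0.34, -0.57 and 0.0019 with animal 4, 5 or 6 left out, so its sign rested on animal 6.

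**Figure D3:**
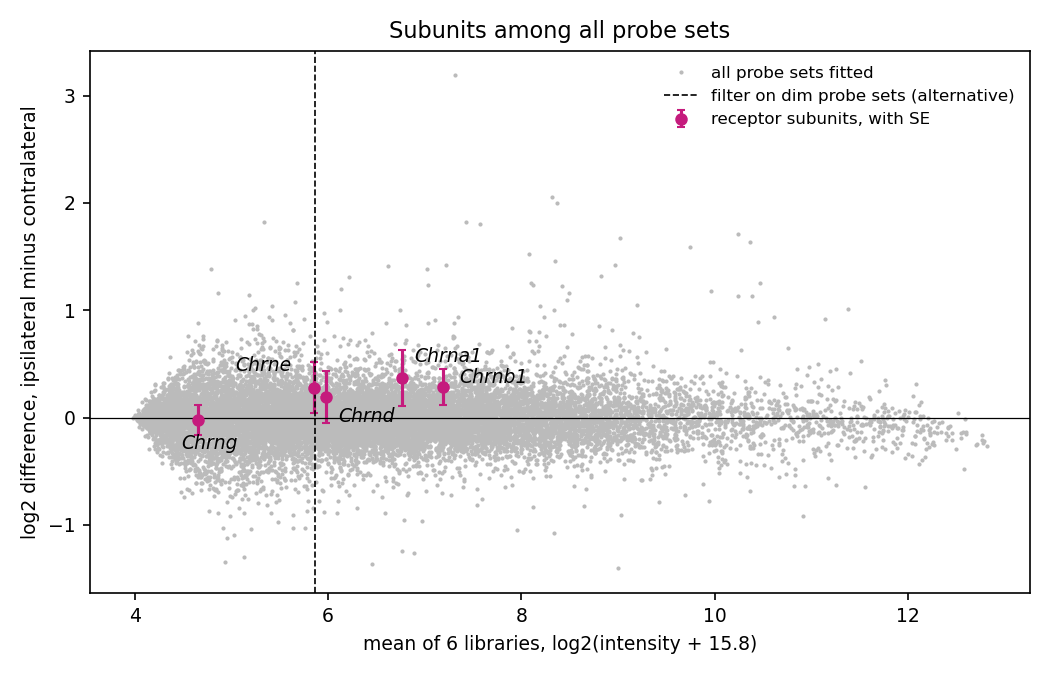
Log2 difference (ipsilateral minus contralateral) against the mean of 6 libraries on the log2(intensity + 15.8) scale, for all 15866 probe sets fitted (grey) and the 5 subunits (coloured, with SE from limma). The dashed line is the filter on dim probe sets used as an alternative, at 5.86. The subunits lie between -0.023 and 0.37.

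Over the 6 libraries, the log2 values of Chrna1 correlated with those of Chrnd at 0.90 and of Chrnb1 at 0.80, and Chrnb1 with Chrnd at 0.86. Of 8104 named probe sets above the 40th percentile of brightness, 2.6% correlated with Chrna1 more closely than Chrnd did, and 6.91% more closely than Chrnb1 did. Chrne correlated with Chrna1 at 0.47, with Chrnb1 at 0.72 and with Chrnd at 0.44. Chrng correlated with Chrna1 at -0.12, with Chrnb1 at -0.13, with Chrnd at -0.44 and with Chrne at 0.41. These correlations are descriptions over 6 libraries that share 3 animals. Among the probe sets closest to Chrna1 were Etfb, the beta subunit of the mitochondrial electron transfer flavoprotein, at 0.994, Rapgef4, a cyclic AMP-responsive exchange factor, at 0.991, Sirt3, a mitochondrial deacetylase, at 0.989 and Ddx50, an RNA helicase, at 0.988. Etfb had intensities of 642, 1161 and 1332 in the ipsilateral muscles of animals 4, 5 and 6, against 769.9, 662 and 858.0 in the contralateral ones, the same order of libraries as for Chrna1. Closest to Chrnb1 were Recql, a DNA helicase, Rnf138, a ubiquitin ligase, Usp1, a deubiquitinase, and Exosc8, an RNA exosome subunit, at 0.986 to 0.992. Closest to Chrnd were Vwa8, Adam17, a membrane sheddase, Ccdc8 and Elovl5, a fatty acid elongase, at 0.986 to 0.993.

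Regulators of subunit transcription came from a list of 21 genes, of which 16 were measured. In limma's fit 0 were called higher and 0 lower, at an unadjusted p under 0.05 there were 0 and 0, and the list median was 0.17, or 0.23 without animal 4. Myog encodes myogenin, an E-box factor that drives the subunit genes in denervated muscle. Its intensity was 148.8, 404.6 and 324.7 in the ipsilateral muscles of animals 4, 5 and 6, against 187.6, 148.0 and 204.6 in the contralateral ones. Ipsilateral animals 5 and 6 were the highest of the 6 libraries, as for Chrna1. The log2 difference was 0.56 (SE 0.30, limma adjusted p = 0.884), with -0.31, 1.36 and 0.63 in animals 4, 5 and 6, and it was 0.99 without animal 4 (limma adjusted p = 0.162) and 0.16 without animal 5. Myog correlated with Chrna1 at 0.95 over the 6 libraries, and 0.654% of the 8104 named probe sets did so more closely. Of the other listed genes, Cdkn1a reached 0.96, Lrp4 0.95 and the neuronal subunit Chrna10 0.97, the last on intensities of only 0.9 to 2.9. The part of Myog in the subunit differences was not tested. Myod1, another E-box factor, differed by 0.011 (SE 0.12), with -0.12, 0.026 and 0.13, and correlated with Chrna1 at -0.57. Tcf4, a partner of the myogenic factors, differed by 0.32 (SE 0.13, limma adjusted p = 0.879) and by 0.071 in its dimmer probe set. Id3, an inhibitor of E-box binding, differed by 0.46 (SE 0.27, limma adjusted p = 0.888), with 1.22, 0.41 and -0.25 in animals 4, 5 and 6, and by 0.079 without animal 4.

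The list of receptor clustering and anchoring had 13 of 19 genes measured, with 0 called higher, 0 called lower and a median of 0.038, or 0.056 without animal 4. Rapsn was not analysed here. Musk, the kinase that organises the postsynaptic membrane, had intensities of 24.4, 27.6 and 24.3 in the ipsilateral muscles of animals 4, 5 and 6, against 21.2, 38.6 and 16.2 in the contralateral ones, and differed by 0.040 (SE 0.19, limma adjusted p = 0.988). Dok7, the adaptor that activates Musk, had 269.1, 296.2 and 255.2 ipsilaterally, against 237.1, 247.2 and 236.7 contralaterally. Its ipsilateral values were all above its contralateral ones, as were those of 4.36% of all probe sets. The log2 difference of Dok7 was 0.17 (SE 0.12, limma adjusted p = 0.895). Dtna, a dystrophin-associated protein that stabilises receptor clusters, had 218.0, 297.1 and 189.6 ipsilaterally, against 174.1, 192.9 and 91.4 contralaterally. It was higher ipsilaterally in each animal, at 0.61 (SE 0.16, unadjusted p = 0.0091 and adjusted p = 0.879 in limma's fit), with 0.30, 0.58 and 0.94 in animals 4, 5 and 6. It was the 1 gene of the 13 with an unadjusted p under 0.05, where 2.84% of all probe sets were so higher and 2.6% lower. Crk, an adaptor downstream of Dok7, differed by -0.20 (SE 0.12) and by 0.19 in its dimmer probe set.

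Acetylcholine handling had 6 of 8 genes measured, with 0 called in either direction and a median of 0.10, or 0.047 without animal 4, and Ache was not analysed here. Chkb, choline kinase beta, differed by 0.16 (SE 0.15), Bche, butyrylcholinesterase, by 0.13 (SE 0.16) and Chat, the enzyme that makes acetylcholine, by 0.18 (SE 0.22) on intensities of 3.7 to 17.7. Receptor assembly and turnover had 9 of 11 genes measured, with 0 called and a median of -0.052, or -0.17 without animal 4. There Sort1, a sorting receptor, differed by -0.34 (SE 0.13, limma adjusted p = 0.879) with -0.15 in its dimmer probe set, Trim63, a ubiquitin ligase of the sarcomere, by -0.22 (SE 0.13), and Prkar1a, a regulatory subunit of protein kinase A, by 0.17 (SE 0.12), with 0.32 and 0.34 in its dimmer probe sets. Of the 11 neuronal-type nicotinic subunits, 11 were measured and 0 were called, with a median of 0.039, or 0.0039 without animal 4. The smallest p-values among them belonged to Chrnb4 at -0.22 (SE 0.18), Chrna4 at -0.17 (SE 0.15) and Chrnb2 at 0.16 (SE 0.16). Only 2 of the 11 neuronal subunits were above the filter on dim probe sets, and the pseudocount understates the differences of dim ones. In the median, the muscle subunits at 0.28 and the neuronal ones at 0.039 were not tested against each other.

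The denervation-responsive list had 11 of 12 genes measured, with 0 called in either direction and a median of 0.46, or 0.71 without animal 4. In animals 4, 5 and 6 its median was 0.080, 0.91 and 0.52. The list was chosen with earlier results of these data known, so the count that follows is a description only. At an unadjusted p under 0.05 there were 3 of the 11, all higher, namely Myh3, Ankrd1 and Sln, where 2.84% of all probe sets were. Fgfbp1 went the other way, at -0.51 (SE 0.22, unadjusted p = 0.0599 in limma's fit), with 0.051, -0.95 and -0.64 in animals 4, 5 and 6. Myh8 was at -0.043 (SE 0.13), and both were below the filter on dim probe sets. Runx1, a transcription factor of denervated muscle, had 77.6, 144.9 and 118.9 in the ipsilateral muscles of animals 4, 5 and 6, against 80.5, 69.8 and 78.4 in the contralateral ones. Its log2 difference was 0.46 (SE 0.22, limma adjusted p = 0.879), 0.71 without animal 4 and 0.24 without animal 5. Runx1 correlated with Chrna1 at 0.87 over the 6 libraries, and 3.33% of the 8104 named probe sets did so more closely. Gadd45a, a growth arrest gene, differed by 0.22 (SE 0.15). Ncam1, an adhesion molecule that spreads over denervated fibres, differed by 0.26 (SE 0.24), or 0.0047 without animal 4, on intensities of 15.7 to 50.1. Myh3, the embryonic myosin heavy chain, differed by 3.19 (SE 0.69, limma adjusted p = 0.879), Ankrd1, a stretch-responsive titin partner, by 2.05 (SE 0.50) and Sln, sarcolipin, a regulator of the calcium pump, by 1.59 (SE 0.50). Ankrd1 differed by 0.74, 3.63 and 1.79 in animals 4, 5 and 6, and by 2.71 without animal 4 and 1.27 without animal 5. Sln differed by 0.080, 3.0 and 1.70 in these animals, and by 2.35 without animal 4 and 0.89 without animal 5. Myh3 had 308.9, 930.6 and 345.6 ipsilaterally in animals 4, 5 and 6, against 164.0, 21.9 and 5.8 contralaterally, with differences of 0.85, 4.65 and 4.06. Its contralateral value in animal 6 was below the pseudocount, and other pseudocounts gave 2.56 and 3.82. In the fit on animals 5 and 6 alone, Myh3 passed at 4.36 (limma adjusted p = 0.0057). There 0.107% of all probe sets were called, and 0 of the 5 receptor subunits. Without animal 5 or 6, Myh3 was at 2.46 or 2.75 and did not pass.

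**Figure D4:**
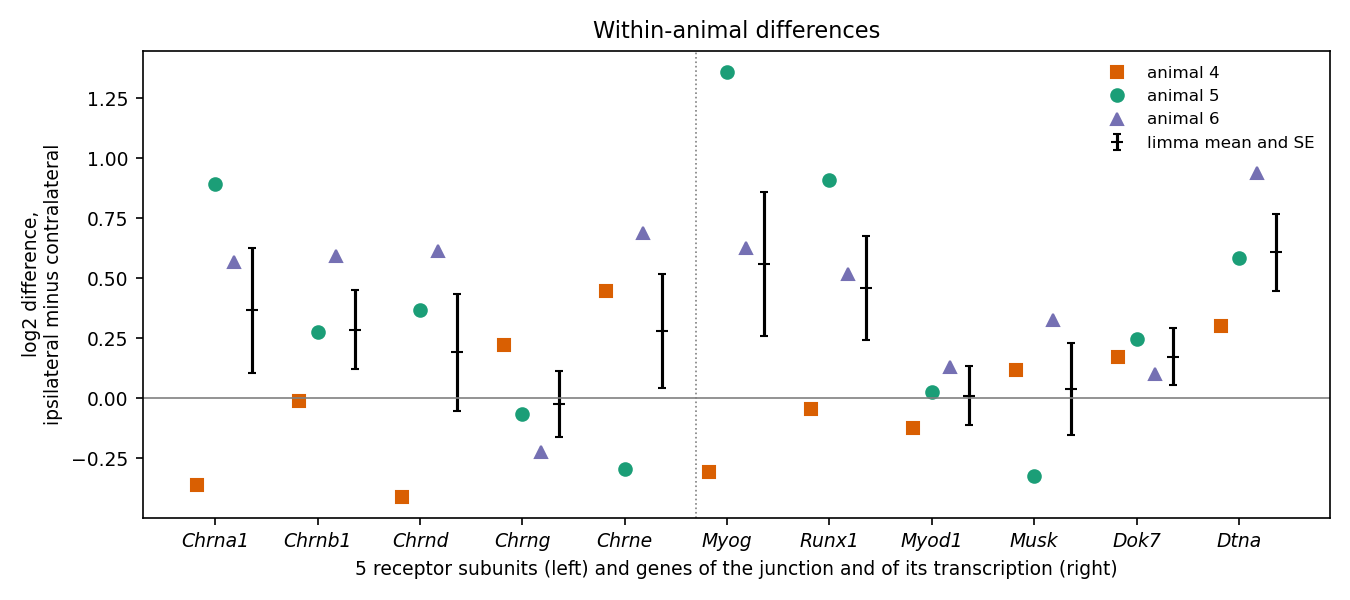
Within-animal log2 difference, ipsilateral minus contralateral, in animals 4 (squares), 5 (circles) and 6 (triangles), with the limma mean and its SE in black, for the 5 subunits and 6 other genes. Animal 4 lies below 0 and animals 5 and 6 above it for Chrna1, Chrnb1, Chrnd, Myog, Runx1 and Myod1, while all 3 animals lie above 0 for Dok7 and Dtna.

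Markers of other cells and of fibre type also differed between the sides, in differing directions. All 5 of 5 slow fibre markers were higher ipsilaterally in every animal, where 11.6% of all probe sets were. Their summed intensity was 9098, 17086 and 11072 in the ipsilateral muscles of animals 4, 5 and 6, against 7083, 4585 and 4706 in the contralateral ones. Animal 4 again had the smallest gap. Of 10 Schwann cell markers 8 were measured, and their sum was 1064 to 1217 ipsilaterally and 856 to 989 contralaterally. Of these 8, 2 were higher and 2 lower in all 3 animals, beside 11.6% and 13.8% of all probe sets. Pmp22, among the higher ones, made the largest part of the sum, at 638 to 645 ipsilaterally and 436 to 548 contralaterally. Mbp, among the lower ones, had 78.0, 79.9 and 63.2 ipsilaterally in animals 4, 5 and 6, against 121.4, 114.1 and 71.2 contralaterally. Sox10 and Ngfr were below the pseudocount on average. Of 8 macrophage markers 6 were measured, with a sum of 2637 to 3659 ipsilaterally and 3815 to 4058 contralaterally. Of 7 adipocyte markers 6 were measured. Their sum was 2353, 3958 and 3889.5 ipsilaterally in animals 4, 5 and 6, against 1974, 2212.5 and 2650 contralaterally. All 6 fibroblast markers were measured. Their sum was 10586, 9369 and 9829 ipsilaterally in animals 4, 5 and 6, against 9434, 10732.5 and 9924 contralaterally. Of 5 endothelial markers 3 were measured. Their sum was 442, 633 and 407 ipsilaterally in animals 4, 5 and 6, against 413, 416 and 331 contralaterally. Only 1 of 5 satellite cell markers was measured. The part of these cells and fibres in the subunit differences was not tested.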

How the data were processed

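Total RNA of both tibialis anterior muscles of 3 rats was measured on 6 arrays. The authors deposited linear intensities, with 1 value for each probe set on each array, scaled to a trimmed mean of about 150 as found from the values. The sources used here do not name the software. Groups and animal numbers came from the sample titles, with Cont read as contralateral. Symbols came from a platform annotation, updated through a gene table of assembly GRCr8, and 57 control probe sets were left out.

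The 20th percentile of all intensities, 15.8, was added as a pseudocount before taking log2. limma 3.58.1 in R 4.3.3 (lmFit and trended eBayes) was fitted over all 15866 probe sets with the animal as a fixed block, without a filter because dim subunits were kept, and p-values were Benjamini-Hochberg adjusted over all of them. Residual degrees of freedom were 2 and prior ones 4.09. The pairing comes from the design, both muscles being of 1 animal, and deviations from group means correlated within animals at -0.021, 0.036 and 0.089. The procedure was tested on simulated data without animal effects, in which the changed probe sets differed by more than any subunit did. That test does not bear on differences as small as those of the subunits. For other genes the brightest probe set was used. Genes named beside the subunits were up to 3 per list with the smallest p, a fixed set, and the 4 probe sets closest to each subunit above the 40th percentile. Fgfbp1 and Myh8 were named besides, as the denervation-responsive genes with a mean difference below 0. Motifs were searched on both strands. Members, lists and alternatives were chosen with earlier results of these data known. The alternatives without 1 library of animal 4 were chosen after seeing the data.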

Additional observations from a re-analysis of the deposited data

How the results depend on the processing

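The number of subunits called was 0 in every alternative run, including each animal left out. Without the replicate block, that is without pairing by animal, the differences were those of the paired fit and the limma adjusted p was 0.926 to 0.992. Chrng changed sign after quantile normalization (0.00063). On leaving out 1 animal or 1 library of animal 4, the difference ranged from 0.10 to 0.73 for Chrna1, 0.13 to 0.45 for Chrnb1, -0.021 to 0.49 for Chrnd, -0.14 to 0.077 for Chrng, 0.0025 to 0.57 for Chrne and -0.57 to 0.0019 for Chrng minus Chrne. The cause was not tested. The filter on dim probe sets left out Chrng and Chrne, and the variance prior has no bearing on Chrng minus Chrne. The choice of probe set was not run, each subunit having 1. In the paired fit and in every alternative that kept all libraries, 0 probe sets were called, so no gene could change side of the threshold there. Leaving out the replicate block, the eBayes trend or dim probe sets does not alter a difference, so its direction could not change there. For the 35 other named genes, without Fgfbp1 and Myh8, the direction changed in 0 of 238 alternatives that kept all libraries. On leaving out an animal, 7 changed sign, with ranges of -0.10 to 0.22 for Musk, -0.048 to 0.078 for Myod1, -0.12 to 0.36 for Chat, -0.010 to 0.27 for Chrnb2, -0.040 to 0.49 for Vwa8, -0.022 to 0.21 for Adam17 and -0.046 to 0.48 for Ccdc8. Without the ipsilateral library of animal 4, Myod1 was at -0.17 and Chrnb2 at -0.040, and without the contralateral one Musk was at -0.018 and Chat at -0.079. Dim subunits are limited by their signal.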
